A study of Mus musculus with 2 samples.

Results

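The nuclear-encoded genes of the respiratory chain were examined in RNA from the nucleoplasm of mouse macrophages. Members were taken by symbol, as the Nduf genes numbered in series A, B, C, S and V, the Cox4 to Cox8 series, the Uqcr and Sdh genes and the Atp5 genes, and each had to have at least 1 transcript annotated as protein_coding. The rule gave 84 genes of 55536 in the tables, with 37 in complex I, 4 in complex II, 8 in complex III, 18 in complex IV and 17 in complex V. A further 12 symbol matches had no protein_coding transcript and were left out. Of these, 9 had no count in either library. The remaining 3 were Ndufb1-ps, annotated as a bidirectional promoter lncRNA, at 13.6 TPM (replicate 1) and 20.4 TPM (replicate 2), and the processed pseudogenes Ndufb4c and Cox6c2.

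The study deposited 2 libraries of 1 group. Both came from bone marrow-derived macrophages of strain C57BL/6J, which are macrophages grown from marrow, given 100 ng/ml lipid A for 50 min. Lipid A is the part of bacterial lipopolysaccharide that activates the receptor TLR4. Per the labels, sex and age were not collected, both libraries carry the same donor label and separate biological replicate numbers, and the fraction is named nucleoplasm in the description and nucleus in the cell part field. Replicate 1 was made from 500 ng of RNA and replicate 2 from 1 µg, with ribosomal RNA depleted. An untreated group was not analysed here. No value below is therefore a response to lipid A, and with a single group no test between conditions could be made. Where a pair of values is given, the first is replicate 1 and the second replicate 2.

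The respiratory chain passes electrons from NADH and succinate to oxygen through complexes I to IV in the inner mitochondrial membrane and uses the energy to pump protons. ATP synthase, also called complex V, makes ATP as the protons flow back. A few subunits are encoded in mitochondrial DNA, whereas most are encoded in the nucleus, transcribed there, spliced, exported and imported into mitochondria as proteins. In macrophages, lipopolysaccharide is known to shift energy metabolism towards glycolysis over hours, and succinate dehydrogenase is known for its part in that shift.

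Gene rows summed to 10342882 and 20495545 expected counts, of which the members took 6217 and 13939. The median member had 33.9 and 84.5 expected counts, and 53 of 84 members in replicate 1 and 23 in replicate 2 had fewer than 50. With 3 counts as the floor, which covers counting error only, a count of 0 allowed up to 0.290 CPM (expected counts scaled to the sum of the gene rows) and 0.146 CPM. All 8 macrophage markers checked, among them Lyz2, Csf1r and Adgre1, reached 1 TPM in both libraries. Of 24 markers of other cell types, 2 reached 1 TPM in both libraries, Kdr and S100a8, and 8 had no count in either; their summed level was 8.72 TPM in replicate 1 and 6.08 TPM in replicate 2, against 3958 and 3171 TPM for the macrophage markers. In bulk RNA, fewer cells of a type and less RNA per cell cannot be told apart.

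Transcripts annotated as protein_coding held 69.6% and 71.4% of the members' summed TPM, but for a few members the tables place much of the level in isoforms with an intron kept. The boundaries of 1 such intron are shown for each of 3 members, Atp5f1, Cox5b and Atp5l, because the isoforms that keep them are described below. For each gene the retained_intron transcript of highest TPM that spans a complete intron between coding exons was taken. The sequences were read from the GENCODE M21 transcripts on mm10, 5′ to 3′ on the gene's strand, with 15 exon bases and 30 intron bases at each end, and capitals mark the first and last 2 bases of the intron.

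Atp5f1 intron 4 of 7, 1714 bases, minus strand, chr3:105955866-105955910 at its 5′ end: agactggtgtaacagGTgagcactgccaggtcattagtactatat
Atp5f1 intron 4, chr3:105954167-105954211 at its 3′ end: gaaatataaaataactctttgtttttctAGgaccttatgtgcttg
Cox5b intron 1 of 3, 521 bases, plus strand, chr1:36691675-36691719 at its 5′ end: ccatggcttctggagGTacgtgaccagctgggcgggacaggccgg
Cox5b intron 1, chr1:36692181-36692225 at its 3′ end: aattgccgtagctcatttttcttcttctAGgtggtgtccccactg
Atp5l intron 2 of 2, 1184 bases, minus strand, chr9:44914621-44914665 at its 5′ end: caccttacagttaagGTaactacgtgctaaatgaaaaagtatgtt
Atp5l intron 2, chr9:44913452-44913496 at its 3′ end: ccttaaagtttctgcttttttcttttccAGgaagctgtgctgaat

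All 3 introns begin with GT and end with AG, the usual splice site bases, and the main protein_coding transcript of each gene lacks them.

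Most members were present at low to middling levels. Of the 84, 75 reached 1 TPM (a level corrected for transcript length and library size) in both libraries, against 38.7% of 22015 nuclear protein-coding genes. In both libraries 15 members reached 10 TPM, against 13.2% of nuclear protein-coding genes. The median member stood at 5.07 and 4.06 TPM. Among the 9158 nuclear protein-coding genes averaging 1 TPM or more, the median was 7.82 TPM in replicate 1 and 5.12 TPM in replicate 2, so that the members' median lay at the 36.9th percentile of these genes in replicate 1 and at the 43.4th in replicate 2. The 76 members that also averaged 1 TPM or more had medians of 5.36 and 4.49 TPM, at percentiles 38.6 and 46.1 of the same genes. The 84 genes together made up 0.267% of the TPM of nuclear protein-coding genes in replicate 1 and 0.312% in replicate 2. The 5 highest, Atp5b, Cox7c, Cox4i1, Atp5a1 and Sdha, were the same 5 in both libraries and held 28.6% and 26.6% of the members' summed TPM.

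**Figure D1:**
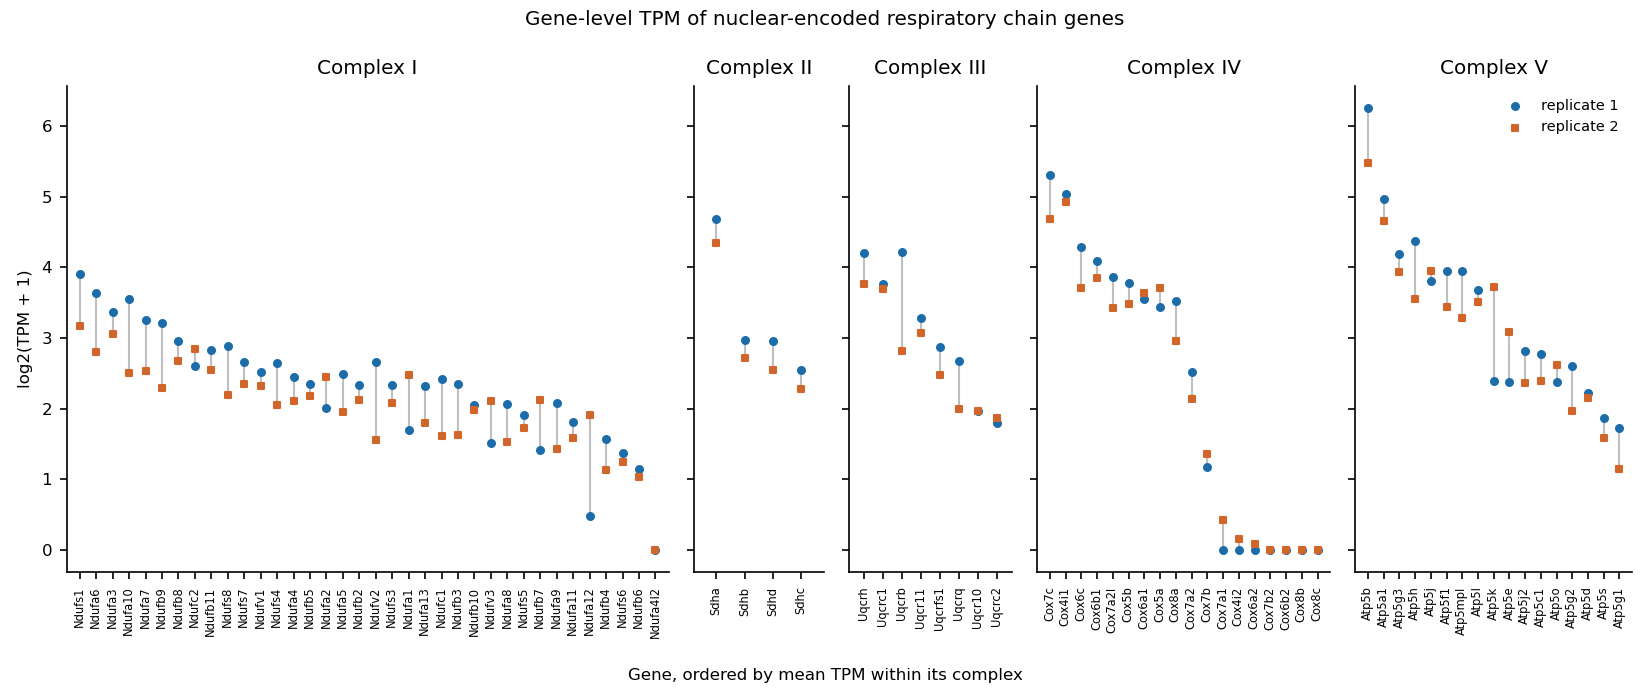
Gene-level TPM of 83 of the 84 genes as log2(TPM + 1) on the vertical axis, with genes ordered by mean TPM within complexes I to V on the horizontal axis; circles are replicate 1, squares replicate 2 and grey lines join the libraries. Atp5b is the highest gene, complex I has no gene that reaches 10 TPM in both libraries, and 7 genes at the right of complex IV lie at or near 0.

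By complex, the median levels were 4.10 TPM in replicate 1 and 3.33 TPM in replicate 2 for complex I, 6.82 and 5.22 TPM for complex II, 7.51 and 5.28 TPM for complex III, 7.30 and 5.06 TPM for complex IV, and 6.06 and 8.75 TPM for complex V. Complex I was lowest in both libraries. The order of the other 4 was not the same in both libraries: complex III was highest in replicate 1 and complex V in replicate 2. Without its 7 tissue-restricted paralogs, complex IV had medians of 12.8 and 11.5 TPM, above the other complexes in both. These 7 are its members below 1 TPM in both libraries, so the rise follows from leaving them out. The place also depends on the unit. In CPM, complex IV without them was at 6.38 and 8.83, below complex II at 7.88 and 9.20.

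Complex I takes electrons from NADH and is the largest complex of the chain. Of its 37 members, 35 reached 1 TPM in both libraries and 0 reached 10 TPM in both. The highest was Ndufs1, a core subunit that carries iron-sulfur clusters. It was at 14.0 and 8.0 TPM (11.0 ± 4.27 TPM, SD, n = 2), from 316 and 535 expected counts. Among the accessory subunits the highest were Ndufa6 at 11.4 and 6.0 TPM and Ndufa3 at 9.37 and 7.33 TPM, and the range of each over the libraries overlaps that of Ndufs1. The level of Ndufa3 came from only 17 and 59 expected counts. Its protein_coding transcripts alone were at 1.17 and 2.68 TPM, so its place depends on noncoding isoforms. The 7 core subunits had medians of 5.33 and 4.01 TPM and the 30 other members 4.0 and 3.22 TPM. Among core subunits the lowest were Ndufs3, at 4.02 and 3.23 TPM, and Ndufv2, at 5.33 and 1.95 TPM. At the lower end of the complex stood Ndufa4l2 with no count, Ndufb6 at 1.22 and 1.05 TPM and Ndufs6 at 1.59 and 1.37 TPM.

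Among members with counts in both libraries, Ndufa12 had the widest gap between them. It was at 0.40 TPM in replicate 1 from 2.28 expected counts and at 2.75 TPM in replicate 2 from 34.2. The processed pseudogene Gm15920, whose transcript matches that of Ndufa12 at 95% identity or more over at least 50% of its length, took 30.7 and 37.8 expected counts. The split of reads between this gene and its copy is therefore uncertain.

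Complex II, succinate dehydrogenase, is the only complex with no subunit encoded in mitochondrial DNA, and it also works in the citric acid cycle. All 4 of its genes were above 1 TPM in both libraries. Sdha, the flavoprotein that oxidises succinate, was at 24.7 and 19.4 TPM (22.0 ± 3.76 TPM, n = 2), from 537 and 1092 expected counts. The iron-sulfur subunit Sdhb was at 6.86 and 5.58 TPM, and the membrane anchors were lower, with Sdhd at 6.78 and 4.86 TPM and Sdhc at 4.87 and 3.86 TPM. Sdha was above its 3 partners in both libraries, whereas the ranges of Sdhb and Sdhd overlapped.

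Complex III passes electrons from ubiquinol to cytochrome c. All 8 of its members were above 1 TPM in both libraries. Uqcrh, the hinge subunit, was at 17.5 and 12.6 TPM (15.1 ± 3.47), and the core protein gene Uqcrc1 at 12.6 and 11.9 TPM (12.2 ± 0.502). Uqcrb, a small subunit near the quinone site, was at 17.6 and 6.02 TPM (11.8 ± 8.20), so its place in the order depends on the library. Uqcr11 was at 8.70 and 7.41 TPM, and Uqcrfs1, the Rieske iron-sulfur protein, at 6.31 and 4.54 TPM. The 3 lowest were Uqcrq at 5.39 and 2.98 TPM, Uqcr10 at 2.91 and 2.90 TPM, and Uqcrc2, the second core protein, at 2.47 and 2.64 TPM. Uqcrc1 and Uqcrc2 form a complex together in the mitochondrion, and their nucleoplasmic levels did not overlap.

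Complex IV, cytochrome c oxidase, hands electrons to oxygen. Of its 18 members, 11 reached 1 TPM in both libraries and 7 reached it in neither. Cox7c, a small subunit, was at 38.5 and 24.7 TPM (31.6 ± 9.77). Cox4i1, the largest nuclear-encoded subunit, was at 31.7 and 29.4 TPM (30.6 ± 1.63), and its range lay within that of Cox7c. Cox6c followed at 18.5 and 12.1 TPM and Cox6b1 at 16.1 and 13.4 TPM, with overlapping ranges. Cox5a was at 9.89 and 12.02 TPM and Cox5b at 12.8 and 10.1 TPM. Cox7a2l, which matches by symbol but is known as a factor for joining complexes into supercomplexes, was at 13.6 and 9.70 TPM.

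Several subunits of complex IV, and Ndufa4, have paralogs known mainly from muscle, testis, lung or other restricted tissues. Ndufa4 is grouped here with complex I by its symbol but is now placed with complex IV. Of the 8 paralogs on the list, 0 reached 1 TPM in either library, while all 7 of their common partners did so in both. Ndufa4l2, Cox6b2, Cox7b2, Cox8b and Cox8c had no count in either library. In replicate 2, Cox7a1 had 3 counts, Cox4i2 had 2 and Cox6a2 had 1, and in replicate 1 all 3 had none. In replicate 1, 3 counts would give 1.89 TPM for Cox8b, 1.22 for Cox7a1, 1.12 for Cox8c and 1.05 for Cox6b2. For these paralogs a count of 0 in replicate 1 thus does not exclude a level of 1 TPM.

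Set against the level that 3 counts per library would give, Cox4i1 was at least 60.6-fold higher than Cox4i2 in replicate 1. In replicate 2, where Cox4i2 had 2 counts, the ratio was 269 with a counting interval of 74.2 to 2231 (95%, from the exact Clopper-Pearson interval of the share of counts). Cox6b1, at 16.1 and 13.4 TPM, was at least 15.3-fold and 43.5-fold higher than Cox6b2. Cox8a, at 10.5 and 6.74 TPM, was at least 5.58-fold and 13.3-fold higher than Cox8b, and at least 9.38-fold and 20.7-fold higher than Cox8c. Ndufa4, at 4.46 and 3.33 TPM, was at least 9.16-fold and 21.9-fold higher than Ndufa4l2.

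Cox6a1, at 10.7 and 11.5 TPM, was at least 18.5-fold higher than Cox6a2 in replicate 1, and the ratio in replicate 2 was 192 (34.0 to 7644). The other 2 pairs were closer to what the depth can resolve. Cox7a2, at 4.71 and 3.38 TPM, was at least 3.87-fold higher than Cox7a1 in replicate 1, with a ratio of 9.94 (3.20 to 49.9) in replicate 2. Cox7b was the lowest common partner, at 1.25 and 1.56 TPM, and was at least 1.51-fold and 6.26-fold higher than Cox7b2.

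The second deposited table, another quantification of the same libraries, gave some of these paralogs more. It put Cox7a1 at 3.33 and 0.572 TPM, Cox8b at 1.34 and 0.0307 TPM, and Cox4i2 at 0.576 and 0.554 TPM. The other 5 were at 0.0435 TPM or less in both. The bounds above thus hold for the first tables, and for Cox7a1 and Cox8b in replicate 1 the tables disagreed on whether 1 TPM was reached.

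The stretches before the starts of Cox8a and Cox8b are shown because the pair sets a subunit gene with 39 and 83 counts beside a paralog with none. Both are the 250 bases upstream of the start given by RefSeq on GRCm38.p6 (the mm10 build), on the minus strand, overlap no annotated GENCODE exon, and have each CG dinucleotide in capitals.

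Cox8a, chr19:7217617-7217866: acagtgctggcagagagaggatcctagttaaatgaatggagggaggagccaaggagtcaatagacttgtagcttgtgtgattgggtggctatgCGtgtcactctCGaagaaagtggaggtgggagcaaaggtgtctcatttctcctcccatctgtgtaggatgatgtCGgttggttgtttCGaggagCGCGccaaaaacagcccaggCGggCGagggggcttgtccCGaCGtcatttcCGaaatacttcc
Cox8b, chr7:140900447-140900696: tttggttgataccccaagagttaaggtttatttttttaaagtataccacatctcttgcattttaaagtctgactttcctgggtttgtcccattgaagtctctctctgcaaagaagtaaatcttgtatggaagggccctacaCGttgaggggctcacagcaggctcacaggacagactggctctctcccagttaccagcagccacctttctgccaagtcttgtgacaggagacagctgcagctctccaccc

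The Cox8a stretch holds 11 CG dinucleotides and the Cox8b stretch 1. Over the whole 300-base windows, which run 50 bases past the start, Cox6b1 had 17 and Cox6b2 10, and Cox7a2 had 20 and Cox7a1 7. Cox7b went the other way with 5 against 10 for Cox7b2. The 68 members with a window had a median of 19 CG dinucleotides, all 16718 nuclear protein-coding genes with a window 14, and the 7431 of them averaging 1 TPM or more had 22.

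The same windows were searched on both strands for 3 short motifs that stand for factors known to act on respiratory genes. GCGCATGCG, the core of the site of NRF1 (nuclear respiratory factor 1), was in 8 of 68 members' windows, against 2.72% of all windows and 4.64% of those of genes averaging 1 TPM or more. CCGGAAG, the core bound by ETS factors such as GABP, was in 16 of 68, against 13.3% of all windows and 22.7% of those of such expressed genes. AAGATGGCG, the core of a YY1 site, was in 7 of 68, against 2.24% and 4.14%. Cox6a1, Uqcr11, Atp5k and Atp5l held both the NRF1 and the ETS core, and Atp5j both the ETS and the YY1 core. The ETS share of the members, 23.5%, was close to that of such expressed genes. A match describes the letters in the window and no binding was measured.

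ATP synthase has a catalytic F1 part, a membrane ring of c subunits, and a peripheral stalk that holds both together. All 17 members of complex V were above 1 TPM in both libraries, and 6 reached 10 TPM in both. Atp5b, the catalytic beta subunit, was at 75.4 and 43.4 TPM (59.4 ± 22.6, n = 2), from 722 and 1477 expected counts. With all its isoforms summed, it was the highest of the 84 members in both libraries and ranked 649th among nuclear protein-coding genes by mean TPM. Atp5a1, the alpha subunit that alternates with beta in the same ring, was at 30.2 and 24.2 TPM (27.2 ± 4.21). Over protein_coding transcripts alone the order was reversed, with Atp5b at 22.3 and 15.8 TPM and Atp5a1 at 27.4 and 21.3 TPM. By that measure Cox7c, at 38.5 and 23.8 TPM, and Cox4i1, at 26.8 and 24.8 TPM, were also above Atp5b. The small F1 subunits were lower, with Atp5c1 (gamma) at 5.86 and 4.26 TPM, Atp5d (delta) at 3.65 and 3.45 TPM, and Atp5e (epsilon) at 4.17 and 7.47 TPM. Alpha and beta were above gamma, delta and epsilon in both libraries, and the ranges of gamma and epsilon overlapped.

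The c subunit is encoded by 3 genes whose mature proteins are the same and whose import sequences differ. Atp5g3 was at 17.3 and 14.3 TPM, Atp5g2 at 5.06 and 2.91 TPM, and Atp5g1 at 2.31 and 1.21 TPM. Atp5g3 thus made up 70.2% of their summed TPM in replicate 1 and 77.7% in replicate 2, and 74.6% and 79.4% in the second quantification. These shares include noncoding isoforms, which held 53.8% and 41.1% of the TPM of Atp5g3, whereas Atp5g2 and Atp5g1 have none annotated. Over protein_coding transcripts alone Atp5g3 was at 8.01 and 8.44 TPM, still above the other c subunit genes but by less. The order of Atp5g2 and Atp5g1 was not shared: the second quantification gave Atp5g1 9.08% and Atp5g2 16.3% in replicate 1 but 11.5% and 9.10% in replicate 2. Atp5g2 has a near-identical copy, the transcribed pseudogene Gm10175, with 6.39 and 42.2 expected counts beside 26.6 and 51.8 for the gene itself, so its level is uncertain.

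Of the peripheral stalk, Atp5h was at 19.8 and 10.7 TPM, Atp5f1 at 14.4 and 9.87 TPM, Atp5j at 13.1 and 14.5 TPM and Atp5o at 4.20 and 5.15 TPM. Among the membrane accessory subunits, Atp5mpl was at 14.4 and 8.75 TPM, Atp5l at 11.8 and 10.4 TPM, and Atp5j2 at 6.06 and 4.15 TPM. Atp5k was at 4.23 TPM from 12 counts in replicate 1 and at 12.2 TPM from 92 counts in replicate 2. The lowest members of complex V were Atp5g1, Atp5s at 2.63 and 2.01 TPM, which is not a structural subunit, and Atp5d.

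Isoforms not annotated as protein_coding were assigned a part of the level of many members. The RNA is nucleoplasmic, and reads of precursors not yet fully spliced cannot be told apart here from reads of retained_intron isoforms. The part of such precursors in the values below was not tested. The noncoding isoform share is the percent of a gene's transcript TPM in isoforms annotated as anything other than protein_coding, and it was computed for the 58 members averaging 1 TPM or more and at least 1 such isoform. Its median was 21.9% and 28.5%, and 31.0% and 33.7% over all 7677 nuclear protein-coding genes that met the same condition. In 7 members the share was 50% or more in both libraries, against 20.9% of the 7677 genes, and in 9 it was under 10% in both, against 13.7%. The latter count, 15.5% of the 58, is close to that background. Summed over the 84 members, transcripts annotated as retained_intron held 20.8% and 19.9% of TPM, processed_transcript 7.15% and 6.67%, and nonsense_mediated_decay 2.39% and 2.05%.

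**Figure D2:**
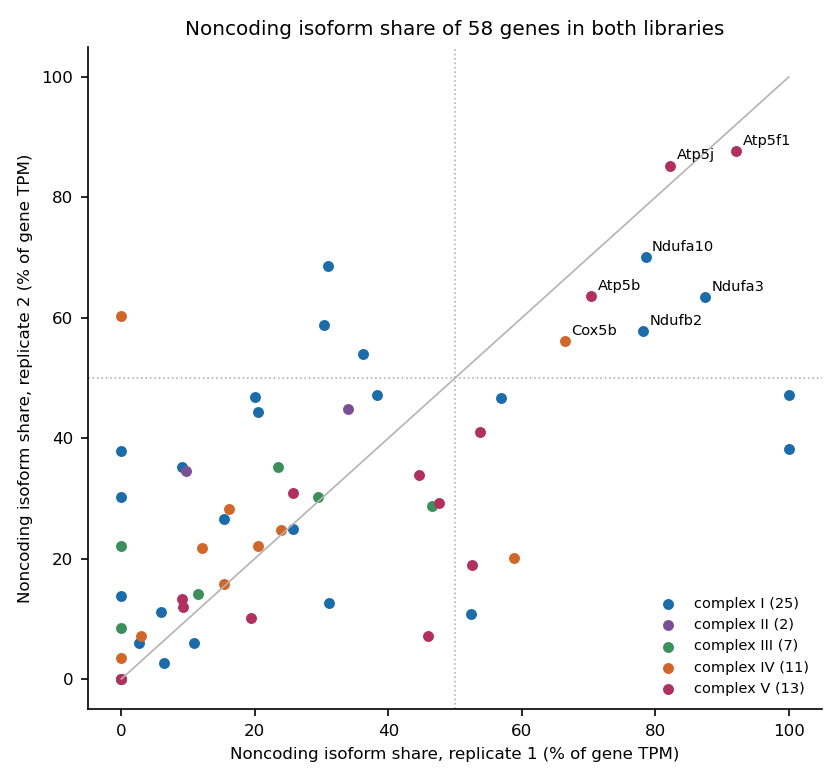
Noncoding isoform share of each of 58 genes as percent of the gene's TPM, replicate 1 on the horizontal and replicate 2 on the vertical axis, coloured by complex; dotted lines mark 50% and the grey line equality. The 7 named genes lie above 50% in both libraries, and points on the axes are genes at 0% in at least 1 library.

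The 7 genes were Atp5f1, Atp5j, Ndufa3, Ndufa10, Ndufb2, Atp5b and Cox5b. Atp5f1, which encodes the b subunit of the peripheral stalk, had 92.2% and 87.7%. Its full-length protein_coding transcript was at 1.13 and 1.21 TPM, below an isoform annotated as nonsense_mediated_decay at 5.92 and 3.28 TPM, and the isoform that keeps intron 4, whose boundaries are shown above, was at 3.15 and 1.31 TPM. On the opposite strand, Atp5f1 overlaps Wdr77 by 731 bases and Gm42890 by 597 bases. Wdr77 had 60 and 105 expected counts and Gm42890 0 and 3.22, beside 181.95 and 320.59 for Atp5f1, which are not whole. Atp5j had 82.2% and 85.3%, spread over 5 retained_intron transcripts and 2 processed ones. It overlaps Gabpa, which encodes the DNA-binding part of GABP, by 701 bases on the opposite strand, and Gabpa had 446 and 656 expected counts beside 62 and 204 for Atp5j.

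For Atp5b the share was 70.4% and 63.6%. Its protein_coding transcript was at 22.3 and 15.8 TPM. Of the 8 noncoding ones, the highest was a processed_transcript of 478 nt at 18.3 and 6.53 TPM. Its retained_intron transcripts together held 34.1% and 34.8% of the gene's TPM, the highest of them at 9.05 and 4.98 TPM. Another of them was at 3.55 and 3.79 TPM, or 4.71% and 8.73% of the gene's TPM. Counted by reads, the share was 41.2% and 37.2%, since the protein_coding transcript is 1916 nt long and took 425 and 927 expected counts. The coding transcript was thus the single highest isoform in both units, while the noncoding isoforms together exceeded it in TPM only.

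**Figure D3:**
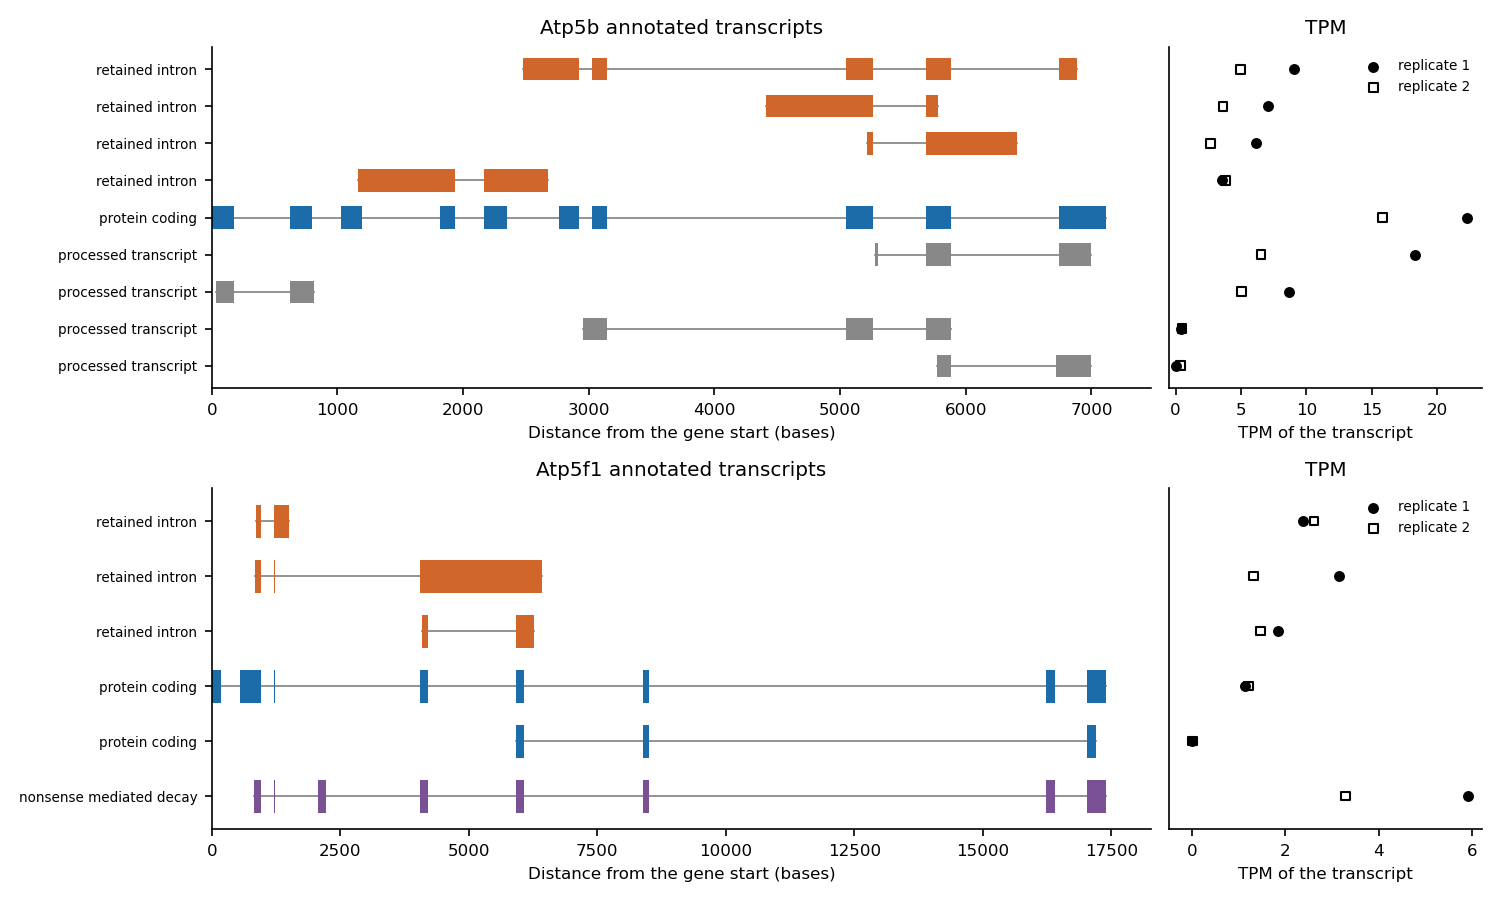
Annotated transcripts of Atp5b (top) and Atp5f1 (bottom), with exons as boxes against distance from the gene start in bases, coloured by annotation class, and at the right the TPM of each transcript in replicate 1 (filled circles) and replicate 2 (open squares). The protein_coding transcript of Atp5b has the highest TPM of its gene, 22.3 and 15.8, whereas that of Atp5f1, at 1.13 and 1.21 TPM, lies below the nonsense_mediated_decay isoform at 5.92 and 3.28.

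Ndufa3 had 87.5% and 63.4%, nearly all in 1 nonsense_mediated_decay transcript, from only 17 and 59 counts over the gene. Ndufa10 had 78.6% and 70.1%, mostly in retained_intron transcripts at 69.2% and 51.8% of its TPM. Cox5b had 66.5% and 56.1%, of which the isoform that keeps intron 1 made 39.0% and 37.7%. Ndufb2 had 78.2% and 57.8% by TPM but 25.8% and 30.7% by counts. Its main protein_coding transcript is 4371 nt long, and the gene overlaps Braf by 146 bases on the opposite strand.

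For Atp5l, as for Ndufb2, the share depended on the unit. A single retained_intron transcript of 6310 nt with 1 exon, which includes the intron 2 shown above, took 385 of the gene's 407 expected counts in replicate 1 and 479 of 574 in replicate 2. Noncoding isoforms thus held 94.5% and 84.5% of its counts but 47.7% and 29.3% of its TPM. The protein_coding transcript of 544 nt was at 6.17 and 7.33 TPM.

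Whether the members' median share was lower or higher than that of other genes depended on the unit. By TPM it was lower, as given above. By expected counts it was 22.9% and 29.9% for the members, against 15.6% and 16.97% for the 7677 genes. The second quantification gave the same switch, with 32.9% and 33.8% against 46.2% and 44.6% by TPM, and 43.5% and 38.5% against 24.6% and 24.5% by estimated counts. The main protein_coding transcript of the 58 members had a median length of 652 nt, against 2898 nt for the 7677 genes. The part of transcript length in the switch was not tested.

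**Figure D4:**
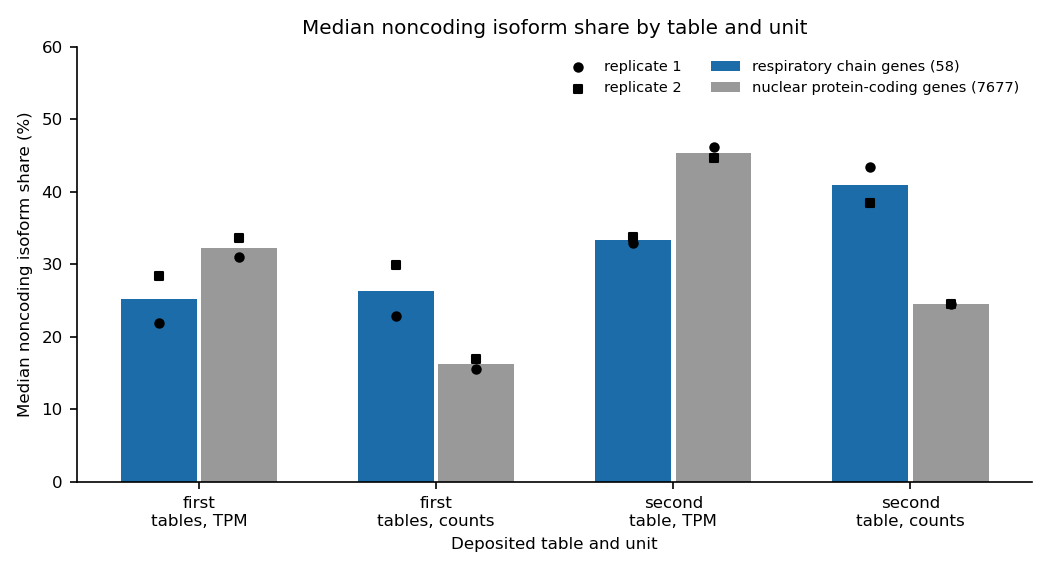
Median noncoding isoform share in percent (vertical axis) of 58 respiratory chain genes (blue) and 7677 nuclear protein-coding genes (grey), by deposited table and unit; bars are means of the 2 libraries, circles replicate 1 and squares replicate 2. In TPM the respiratory chain genes lie lower, and in counts they lie higher, in both tables.

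Taking protein_coding transcripts alone, 70 of 84 members reached 1 TPM in both libraries, against 34.7% of nuclear protein-coding genes. The 76 members averaging 1 TPM or more then had medians of 4.19 and 3.17 TPM, against 5.31 and 3.32 TPM for the 9158 genes at that level.

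The members were compact genes. The main protein_coding transcript of the 76 members averaging 1 TPM or more had a median of 709 nt and 4 exons over a gene span of 7565 bases, against 2835 nt, 9 exons and 24972 bases for the 9158 genes at that level. Across these 76 genes, mean TPM and transcript length had a Spearman rho of 0.060 and mean TPM and gene span one of -0.090, given as a description, since all points share the same 2 libraries. The 84 genes lay on 19 chromosomes, with at most 8 on 1 of them, chromosome 7. Of the 76, 27 overlapped a gene on the opposite strand, against 45.4% of the 9158, and 20 had an expected count that was not whole (by more than 0.005) in at least 1 library, against 27.6%, which marks reads divided between genes. The strand setting is not given in the sources used here, so reads of such pairs cannot be told apart. Cox6c has the most counts on its other strand: it overlaps Vps13b by 5344 bases, and Vps13b had 5577 and 8026 expected counts beside 130 and 286 for Cox6c.

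Between the libraries, 3 of the 31 members with at least 50 expected counts in both differed by more than 2-fold in TPM, all with the lower level in replicate 2. They were Uqcrb at 17.6 and 6.02 TPM, Ndufv2 at 5.33 and 1.95 TPM and Ndufa10 at 10.8 and 4.66 TPM. Other genes shared this direction, with a median log2 ratio of -0.68 over 7610 nuclear protein-coding genes. How many of those genes differed by more than 2-fold before that median was taken out was not counted. Their lower quartile lay at -0.29 relative to that median, which puts it close to a 2-fold lower level in replicate 2. The 3 of 31 are therefore not read as a result about the members. Over the 31 members, the log2 ratio of replicate 2 to replicate 1 in TPM, less the median of -0.68 over 7610 nuclear protein-coding genes with the same counts, ranged from -0.87 to 0.96. None of the 31 was more than 2-fold from that median, against 3.38% of the 7610 genes, so that the count is near the background. The members' median was 0.21, which became -0.26 with no count minimum and a pseudocount of 1 TPM, where the median subtracted is -0.01, and 23 of 31 lay above 0. By complex it was -0.14 for 8 genes of complex I, 0.34 for 4 of complex II, 0.21 for 4 of complex III, 0.27 for 6 of complex IV and 0.22 for 9 of complex V. The 53 members with fewer counts than this were not part of these values.

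The lowest relative ratios were those of Uqcrb at -0.87, Ndufv2 at -0.77, Ndufa10 at -0.53 and Ndufa6 at -0.24. The highest were those of Cox5a at 0.96, Atp5j at 0.83, Uqcrc1 at 0.60 and Cox4i1 at 0.57. In CPM Ndufa6 changed sign, to 0.14, and so did Atp5l, from 0.50 to -0.39, Atp5b, from -0.11 to 0.15, and Atp5f1, from 0.14 to -0.07. The RNA input also differed between the libraries, and its part in these ratios was not tested.

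**Figure D5:**
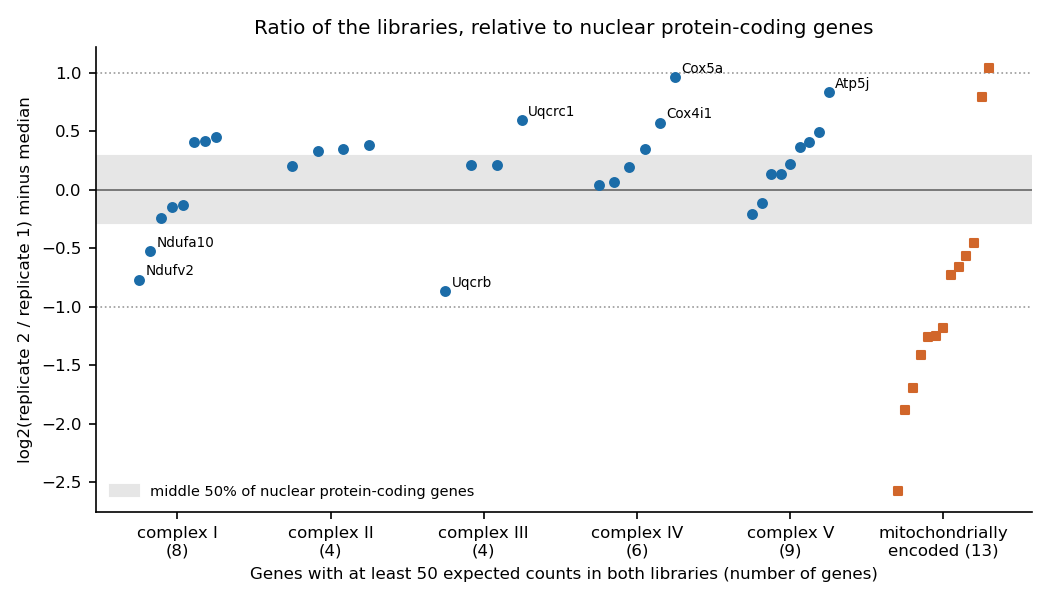
Log2 ratio of replicate 2 to replicate 1 in TPM, minus the median of nuclear protein-coding genes, for genes with at least 50 expected counts in both libraries; blue circles are members by complex, orange squares the mitochondrially encoded subunits, the grey band the middle 50% of nuclear protein-coding genes and dotted lines 2-fold. All 31 nuclear-encoded genes lie between the dotted lines, and 11 of 13 mitochondrially encoded genes lie below 0.

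The mitochondrially encoded subunits of the same complexes were at far higher levels and had lower ratios between the libraries. Their 13 mRNAs had a median of 3999 and 1433 TPM, and 11 of 13 had a relative ratio below 0, with a median of -1.18. By mean TPM the highest were mt-Atp8 at 22477 and 2353 TPM, mt-Co1 at 15399 and 5802 TPM and mt-Nd6 at 8518 and 3574 TPM. The place of mt-Atp8 depends on the unit, since it had 5044 and 2996 expected counts, against 229187 and 267189 for mt-Co1. The lowest were mt-Co2 at 679 and 130 TPM and mt-Atp6 at 659 and 299 TPM. Neither had whole expected counts, with 3537.53 and 2195.16 for mt-Co2 and 3410.05 and 5014.81 for mt-Atp6. Such counts mark reads divided between genes, so these 2 levels are uncertain. Rows of mitochondrial DNA took 5.67% and 3.15% of expected counts. These mRNAs are made inside mitochondria, and the part of mitochondria in the fraction was not tested.

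The second quantification gave lower TPM than the first tables for most genes, with a median log2 ratio over 9137 nuclear protein-coding genes of -0.32 in replicate 1 and -1.73 in replicate 2. After that median was taken out in each library, the second quantification was more than 2-fold higher in both libraries for 4 of 76 members, against 4.75% of the 9137 genes, and more than 2-fold lower in both for 0 of 76, against 0.131%. Both counts are near these background shares. The 4 were Ndufa12, with log2 ratios of 4.95 in replicate 1 and 1.48 in replicate 2, Ndufs8 with 1.30 and 1.52, Ndufa7 with 1.38 and 1.35, and Cox7a2 with 1.37 and 1.32. Ndufs7 followed with 1.84 and 0.91. The largest in the other direction were Atp5g2 with -0.52 and -1.05, Ndufb6 with -0.85 and -0.69, Uqcr11 with -0.91 and -0.47, and Ndufc1 with -1.23 and 0.09, the last with opposite signs in the 2 libraries. Ndufa12, Ndufs8, Ndufa7 and Ndufs7 belong to complex I, and so do Ndufb6 and Ndufc1 in the other direction.

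Subunits and carriers that the symbol rule leaves out were detected as well. Usmg5, a membrane accessory subunit of ATP synthase, was at 26.9 and 9.25 TPM, and Atpif1, which encodes the inhibitor of ATP hydrolysis by the same enzyme, at 16.4 and 12.7 TPM. Ndufab1, the acyl carrier protein of complex I, was at 5.32 and 4.24 TPM, Cycs, cytochrome c, at 4.87 and 3.15 TPM, and Cyc1, cytochrome c1 of complex III, at 2.39 and 3.45 TPM. All 5 were above 1 TPM in both libraries.

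Factors that assemble the complexes had a lower median level than the subunits. Of 49 on the lists, 25 reached 1 TPM in both libraries and 15 in neither, with medians of 1.78 and 1.17 TPM. For complex I, Ndufaf3 was at 5.42 and 3.98 TPM, Foxred1 at 3.58 and 3.64 TPM and Ndufaf8 at 2.95 and 1.45 TPM, with Ndufaf2 at 0.78 and 0.30 TPM and Ndufaf4 at 0.62 and 0.33 TPM lowest. For complex II, Sdhaf2, which attaches the flavin to Sdha, was at 7.78 and 2.87 TPM, and the remaining 3 were below 1 TPM in both.

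For complex III, Ttc19 stood at 13.4 and 7.82 TPM, Uqcc1 at 3.53 and 1.80 TPM and Uqcc3 at 2.22 and 0.88 TPM, while Bcs1l, which inserts the Rieske protein, was at 0.69 and 0.86 TPM and Lyrm7 at 0.12 and 0.15 TPM. For complex IV, the copper chaperone Cox17 was at 21.9 and 17.3 TPM, Surf1 at 13.1 and 10.6 TPM and Cox20 at 11.8 and 2.48 TPM, with Sco2 at 0.70 and 0.54 TPM and Pet117 listed at 0. For complex V, Atpaf1 was at 10.5 and 4.30 TPM, Atpaf2 at 2.39 and 1.25 TPM and Tmem70 at 1.25 and 0.97 TPM. Cox17 and Surf1 were the only 2 of the 49 to reach 10 TPM in both libraries.

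Of 13 regulators of respiratory genes, 8 reached 1 TPM in both libraries. The highest were Gabpb1, a partner of Gabpa, at 20.2 and 8.18 TPM, the orphan nuclear receptor gene Esrra at 13.7 and 9.96 TPM, and Gabpb2 at 12.5 and 5.47 TPM. The lowest were Tfb1m, a mitochondrial rRNA methyltransferase, at 0.83 and 0.25 TPM, and Ppargc1a, the coactivator PGC-1 alpha, with no count in either library. Its relative Pprc1 was at 8.58 and 8.42 TPM, and Nrf1, whose site was searched above, at 10.1 and 3.92 TPM.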

How the data were processed

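Members and lists were chosen with earlier results of these data known, so no list is independent evidence. The authors deposited, per the file headers, gene and transcript tables of expected counts and TPM laid out like RSEM output (the first tables), and a second transcript table with estimated counts and TPM in the layout of kallisto. Per the authors' readme files, the build is mm10 and the annotation M21. Which programs, versions, strand setting and filters were used is not given in the sources used here. Only annotated transcripts have rows, so nuclear RNA with unannotated introns has no row of its own.

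Gene classes and positions came from GENCODE M21. The tables also held 97 spike-in rows and 26248 rows named only by numbers, left out here, with 0.504% and 0.000106% of expected counts in replicate 1 and 0.0967% and 0.000102% in replicate 2. Nuclear protein-coding genes held 26.2% of summed TPM in replicate 1 and 17.04% in replicate 2. Atp5o has 2 identifiers, 1 of them at 0, which were summed, so 85 identifiers gave 84 members. Near-identical copies were found with BLAST+ 2.17.0. Promoter windows are from RefSeq, GRCm38.p6, for the 68 members matched. Calculations used pandas 2.3.3 and were tested on simulated data.

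Genes were named by rule: the 4 highest and 3 lowest per complex, all paralogs, partners and c subunit genes, the 4 largest replicate and quantification ratios each way, the 4 highest noncoding shares and any of 50% or more in both libraries, and the 3 highest and 2 lowest of the other lists. Others are named for their role or a shared read. 1 gene that the rule names is not reported here.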

Additional observations from a re-analysis of the deposited data

How the results depend on the processing

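Levels are averages of the 2 libraries' medians. The median over all members, 4.56 TPM, was 3.70 in CPM, 21.6 in TPM rescaled over nuclear protein-coding genes and 2.79 TPM in the second quantification. By complex, in the same order of settings, the value moved from 3.72 to 2.70, 17.6 and 2.40 for complex I, from 6.02 to 8.54, 28.3 and 2.83 for complex II, from 6.39 to 4.63, 29.8 and 3.09 for complex III, and from 7.41 to 5.27, 37.3 and 3.92 for complex V. For complex IV it moved from 6.18 to 2.89 and 28.8, and to 12.1 over members with a mean TPM of at least 1. In the second quantification complex IV was at 4.86 TPM, above every other complex there. Units differ by construction, and complex II was highest in CPM. The single libraries spanned 4.06 to 5.07 TPM over all members. The number of members at 1 TPM or more in both libraries, 75, ranged from 51 to 76 over the alternatives.

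The median noncoding share, 25.2%, was 33.4% in the second quantification and 21.9% to 28.5% in single libraries. The difference of medians from other genes, an added value chosen after seeing the data, was -7.12 percentage points, -12.1 in the second quantification, -9.99 at a mean TPM of at least 10, 10.1 in expected counts, and -9.01 to -5.22 in single libraries. The members' median replicate ratio, 0.21, became -0.26 with no filter and a pseudocount of 1 TPM, where the median subtracted is -0.01 instead of -0.68. The median ratio of the quantifications, 0.01, was -0.16 at a mean TPM of at least 10 and -0.11 to 0.0051 in single libraries. Single libraries were left aside, since a level or share that is a mean of 2 lies within their spread by construction. The median ratio of the quantifications, taken over per-gene means, is not bound in this way. Besides single libraries, 39 alternative values were computed. Of these, 15 moved by less than the spread between the libraries (by less than 1.5 times for the count), 21 moved by more and 3 changed sign. No paired analysis was possible because there is 1 group. With 2 libraries, SDs are imprecise, and members under 50 counts are limited by depth.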
